A study of Mus musculus with 18 samples.

Results

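The translation initiation factors are the proteins that bring a ribosome to the start codon of an mRNA. The genes were taken by name, as the mouse protein-coding genes whose RefSeq symbol begins with Eif1 to Eif6, leaving out the Eif4ebp genes and the Eif2ak kinases, which regulate the factors and are not factors themselves. RefSeq lists 49 such genes. The arrays carried probes for 48 of them, all but Eif3j2, with 60 probes among the 37246 probes and 34289 gene names of the array. Of the 48 genes, 39 had 1 probe and 9 had several. The rule uses names and no measured value.

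In the initiation pathway, eIF2 carries the initiator methionyl-tRNA to the small ribosomal subunit as a complex with GTP, and eIF2B reloads eIF2 with GTP after each round. The factors eIF1, eIF1A and eIF3 hold the small subunit open for scanning. The cap of the mRNA is bound by eIF4E, which joins the scaffold eIF4G and the helicase eIF4A, and eIF4B and eIF4H assist the helicase. At the start codon eIF5 triggers GTP hydrolysis on eIF2, and eIF5B joins the large subunit, which eIF6 keeps apart until then. Phosphorylation of eIF2 and sequestration of eIF4E by 4E-binding proteins are the classical ways by which stressed cells slow translation, and neither of them is read by an mRNA array.

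Gene expression was measured in mouse embryonic stem (ES) cells and in the differentiated (ED) cells made from them, to find transcripts that differ between both cell types before and after ionizing radiation (IR). The ES cells were wild type, isolated from blastocysts, karyotypically normal and of early passage, and were grown with leukemia inhibitory factor (LIF) and without feeder cells. The isogenic ED cells were obtained by undirected differentiation, in which LIF was withdrawn for 1 week or until stem cell markers were lost according to the labels, and LIF and beta-mercaptoethanol were depleted for at least 4 days according to the methods. Both cell types were analyzed without IR (ES and ED), 15 min after 10 Gy (radiation early, ESRE and EDRE) and 4 h after 10 Gy (radiation late, ESRL and EDRL), with 3 samples in each of the 6 groups and 1 Agilent 1-color array for each of the 18 samples. No other genotype or treatment was given for any group, and neither the strain nor the sex of the cells is stated in the sources used here. Nothing in the labels says that the 3 samples of a group came from separate cultures, so p-values measure the spread between these samples, which may be technical.

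A level is given here as the log2 signal of a probe minus the log2 of the 75th percentile of its array, so that 0 is the brightness of that percentile and a difference of 1 is a 2-fold difference. Levels of different probes are not comparable with each other. Outlier spots, as marked by the scanner's software, were left out, which removed 111 of the 1080 member values. Most arrays had a 75th percentile of 2806 to 4268. The exceptions were 3 dim arrays, EDRE replicate 2 (875), EDRE replicate 3 (1155) and ESRL replicate 1 (1952). The dim EDRE arrays also had the most outlier spots (24.4% and 23.8%, the others having 3.33% to 11.1%), and a low share of their probes was well above background (49.5% and 55.5%). The labels of the cell types held on their markers. Of 7 stem cell markers tested, 6 were lower in ED than in ES cells, among them Pou5f1 by 10.29 and Nanog by 8.85 on the log2 scale, whereas Klf4 was not called (0.05). The collagens Col1a1, Col1a2 and Col3a1, with Pdgfrb and Vim, were higher in ED cells, which made 5 of 6 mesenchymal markers, and Thy1 was lower. Of the markers of other lineages, 3 of 3 endoderm markers tested and 1 of 3 neural markers were lower.

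A gene was called where a probe had an adjusted p under 0.05 (limma over all arrays, Benjamini-Hochberg adjustment over all probes tested) and a log2 change over 1 in size. A probe entered a comparison if either group had it well above background on its 3 arrays. The probe shown for a gene with several probes was the one well above background on most arrays, for members and other genes alike. It was well above background on all 18 arrays for 41 of the 48 members (85.4%), against 43.5% of all genes, and over all probes the shares were 48 of 60 member probes (80%) against 44.9%. The other 7 were Eif2s1, Eif2b2, Eif4a3l1, Eif4e1b, Eif4e2, Eif4g2 and Eif5b, and except for Eif4e1b and Eif4g2 they missed that mark only on replicates of EDRE. In bulk samples a transcript that falls because fewer cells express it and a transcript that falls in every cell cannot be told apart.

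The bases upstream of the annotated starts are shown for some members picked from the comparison of ED with ES cells. The first set are the 3 members lower in ED cells whose promoters hold an E-box, the palindrome CACGTG known as a binding sequence of Myc and related factors. They were picked for that motif. All 3 calls were lost with each array set to its median and with arrays of the same scan time as a random block. RefSeq (GRCm38.p6) gave promoter sequence for 39 of the 48 members, and within 250 bases upstream 9 of them (23.1%) held an E-box, namely Eif1b, Eif3f, Eif3k, Eif4a1, Eif4h, Eif4e, Eif4g1, Eif5a and Eif5a2, against 6.86% of all 27025 genes with a sequence. The 250 bases before the start, 5' to 3' on the coding strand, lie at chr11:69672424-69672673 on the minus strand for Eif4a1, at chr7:28981889-28982138 on the minus strand for Eif3k and at chr3:28781027-28781276 on the plus strand for Eif5a2, with the E-box in capitals.
Eif4a1: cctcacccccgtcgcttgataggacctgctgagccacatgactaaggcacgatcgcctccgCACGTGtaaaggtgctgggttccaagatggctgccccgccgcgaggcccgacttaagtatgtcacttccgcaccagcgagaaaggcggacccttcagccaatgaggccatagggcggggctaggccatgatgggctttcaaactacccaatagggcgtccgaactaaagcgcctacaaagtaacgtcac
Eif3k: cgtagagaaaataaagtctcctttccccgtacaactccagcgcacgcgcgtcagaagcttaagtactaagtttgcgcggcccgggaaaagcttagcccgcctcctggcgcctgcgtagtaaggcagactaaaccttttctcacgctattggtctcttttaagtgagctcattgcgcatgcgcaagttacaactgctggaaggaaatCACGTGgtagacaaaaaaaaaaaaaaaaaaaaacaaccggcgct
Eif5a2: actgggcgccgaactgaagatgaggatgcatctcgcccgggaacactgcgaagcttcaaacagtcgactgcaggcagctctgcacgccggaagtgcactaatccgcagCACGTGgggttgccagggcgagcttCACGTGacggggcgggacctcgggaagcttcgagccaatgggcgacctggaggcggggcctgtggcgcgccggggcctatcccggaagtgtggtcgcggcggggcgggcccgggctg
Eif4a1 held 1 E-box, which began 189 bases before the start, Eif3k held 1 at 44 bases, and Eif5a2 held 2, at 142 and 117 bases. Of the 11 members called lower in ED cells that have a promoter sequence, 3 held an E-box, 6 a GC box and 6 a CCAAT box, the other motifs searched. A match describes these letters and is not evidence of binding.

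The second set holds the X-linked and Y-linked genes of eIF2 gamma, which behaved differently in ED cells, and Eif4a3l1, the member with the largest change. The windows are chrY:1010345-1010594 on the plus strand for Eif2s3y, chrX:94212652-94212901 on the minus strand for Eif2s3x and chr6:136327289-136327538 on the plus strand for Eif4a3l1, with the GC box (GGGCGG, or CCGCCC on the other strand) in capitals.
Eif2s3y: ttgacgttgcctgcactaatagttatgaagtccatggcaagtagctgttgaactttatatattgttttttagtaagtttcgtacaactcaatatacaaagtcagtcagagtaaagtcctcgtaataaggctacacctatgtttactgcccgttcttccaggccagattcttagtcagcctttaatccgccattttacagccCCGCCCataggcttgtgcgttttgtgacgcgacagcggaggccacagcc
Eif2s3x: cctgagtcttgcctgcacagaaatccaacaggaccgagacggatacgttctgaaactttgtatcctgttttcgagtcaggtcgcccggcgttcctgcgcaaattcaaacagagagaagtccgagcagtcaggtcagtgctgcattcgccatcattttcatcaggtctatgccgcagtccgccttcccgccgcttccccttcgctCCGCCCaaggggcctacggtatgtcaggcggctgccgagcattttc
Eif4a3l1: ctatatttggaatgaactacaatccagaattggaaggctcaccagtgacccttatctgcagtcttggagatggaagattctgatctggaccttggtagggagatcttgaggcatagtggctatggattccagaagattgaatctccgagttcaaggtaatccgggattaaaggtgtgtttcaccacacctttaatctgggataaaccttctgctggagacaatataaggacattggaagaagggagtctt
Eif2s3y and Eif2s3x each held 1 GC box, 49 and 46 bases before the start, and none was found in the window of Eif4a3l1, in which 43.6% of the bases were G or C. A GC box was present upstream of 29 of the 39 members (74.4%), against 35.4% of all genes, and a CCAAT box (CCAAT, or ATTGG on the other strand) upstream of 13 members (33.3%), against 37.5%. All motifs were searched on both strands, and a match of one could share bases with a match of another.

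In ED cells 13 initiation factors were lower and 2 higher than in ES cells, relative to the 75th percentile of each array. The genes lower in ED than in ES cells were Eif2s2 and Eif2s3y of eIF2, Eif2b3, Eif2b4 and Eif2b5 of eIF2B, Eif3g and Eif3k of eIF3, Eif4a1 and Eif4a3l1 of the eIF4A family, Eif4e1b and Eif4e2 of the eIF4E family, Eif5a2 and Eif2d. Eif3e and Eif5b were higher. With 47 members tested, 4.26% were called higher and 27.7% lower. Of all 26228 genes tested 14.9% were called higher and 26.7% lower, so the share of members lower was near the background. By adjusted p alone 4 members were higher, with Eif4g1 and Eif4g3 added, and 17 lower, with Eif3i, Eif3l, Eif4a3 and Eif4e added (19.4% and 32.1% of all genes). The median change over the members was -0.35, beside -0.19 over all probes tested, and 29 of the 47 members lay below that median. Another scaling moved this split. When arrays were set to their medians the median change over all probes was 0.46 and over the members 0.30, 7 members were called higher and 5 lower (26.8% and 18.6% of all genes), and 7 of the 15 calls were shared. The calls lost were Eif2b3, Eif2b4, Eif2b5, Eif2s2, Eif3g, Eif3k, Eif4a1 and Eif5a2, all of them lower on the scaling to the 75th percentile, and those added were Eif1ax, Eif3h, Eif4b, Eif4g1 and Eif4g3. The log2 values deposited by the authors, which are scaled close to the array medians, lost and added the same genes, except that Eif4a1 stayed called. With arrays of the same scan time as a random block, 3 calls were left, Eif2d, Eif2s3y and Eif4a3l1 (0 higher and 3 lower, beside 7.91% and 13% of all genes). All ES arrays shared a scan time and all ED arrays shared another, so cell type and scan time cannot be told apart in this comparison.

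**Figure D1:**
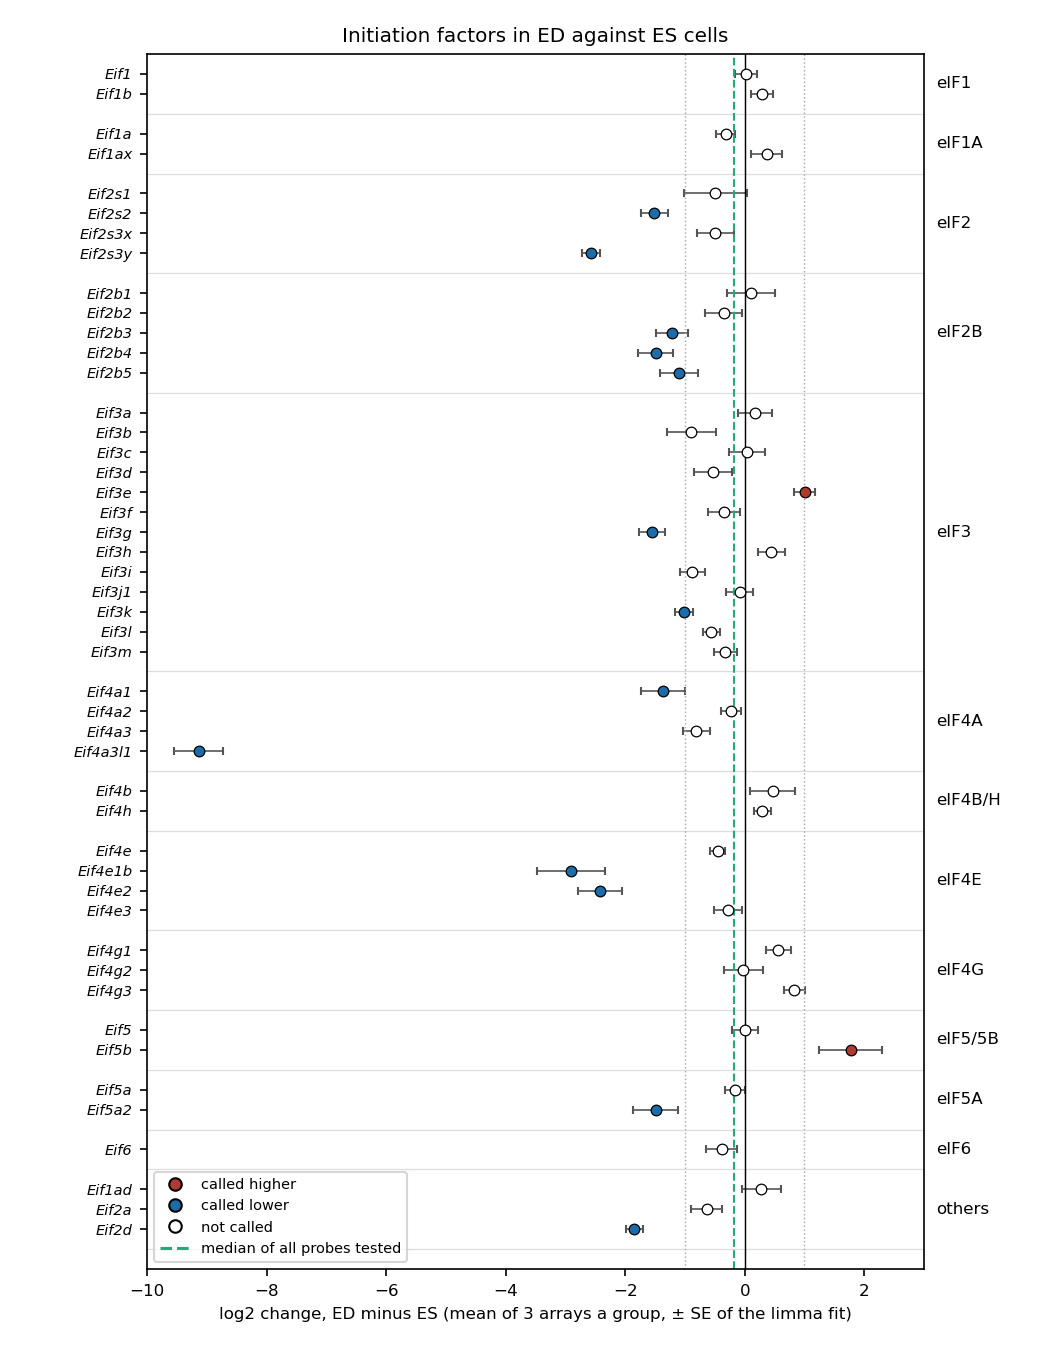
Log2 change in ED against ES cells (x axis, mean of up to 3 arrays a group, bars are the SE of the limma fit) of the 47 members tested, by complex; red and blue points are members called higher and lower, the dashed line is the median of all probes tested (-0.19) and the dotted lines mark changes of 1. The calls lie in eIF2, eIF2B, eIF3, eIF4A, eIF4E, eIF5/5B, eIF5A and among the others, Eif4a3l1 stands farthest out at -9.14, and with each array set to its median the members' median is 0.30 in place of -0.35.

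The factors that settle on the small subunit first were not called on the scaling to the 75th percentile. Eif1, whose product guards start codon selection, was at 4.28, 4.33 and 4.09 in ES and at 3.93, 4.46 and 4.37 in ED cells (change 0.02 ± 0.19 SE, adjusted p = 0.947). The groups overlapped. Its paralog Eif1b had a change of 0.29 (adjusted p = 0.227). The eIF1A genes, which code for the partner of eIF1 in scanning, gave changes of -0.32 (Eif1a, adjusted p = 0.118) and 0.37 (Eif1ax, adjusted p = 0.271). Eif1ax was called higher with each array set to its median and in the authors' values.

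Of eIF2, the beta subunit and the Y-linked gamma subunit were lower in ED cells. Eif2s2, the beta subunit, was at 4.64, 4.67 and 4.61 in ES and at 2.76, 3.25 and 3.37 in ED cells. All ED values lay below all ES values, by 1.51 ± 0.23 (SE) on the log2 scale or 2.85-fold (adjusted p = 9.22e-05), and the spread was wider in ED (SD 0.32, n = 3) than in ES cells (SD 0.03, n = 3). Eif2s1, the alpha subunit that stress kinases phosphorylate, was at -4.64 ± 0.23 (SD, n = 3) in ES and -5.13 ± 0.19 (SD, n = 3) in ED cells and was not called (adjusted p = 0.482). Eif2s3y, which codes for the gamma subunit from the Y chromosome, was at 3.44, 3.32 and 3.29 in ES and at 0.78, 0.73 and 0.81 in ED cells. The spread within either group was small beside the difference of 2.58 ± 0.15 (SE) on the log2 scale, a 5.96-fold lower level (adjusted p = 9.95e-09), and the call was kept in every alternative and with each array left out in turn. Eif2s3x, the X-linked copy of the same subunit, was at 3.11, 3.34 and 3.15 in ES and at 3.14, 2.75 and 2.24 in ED cells (-0.49 ± 0.30 SE, adjusted p = 0.202). The groups overlapped in replicate 1 of ED.

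The other Y-linked genes moved with Eif2s3y. In a list of Ddx3y, Uty, Kdm5d and Xist, the 3 Y-linked genes were lower in ED cells, Ddx3y by 1.22 (adjusted p = 0.00114) and Uty by 1.76 (adjusted p = 6.42e-06) on the log2 scale. Kdm5d was well above background on 3 of 3 ES and 0 of 3 ED arrays and was at least 6.91-fold lower (adjusted p = 6.59e-05), a bound set by the lowest signal well above background on each ED array. Xist, the transcript that silences an X chromosome, was well above background on 2 ES arrays and 1 ED array and was not called. The log2 of the summed level of the list ranged from 1.92 to 2.13 in ES and from 0.63 to 0.79 in ED cells. Most of this sum came from the brightest probe, Ddx3y (mean 1.73 in ES and 0.52 in ED cells), so it adds little to the values above. The part of the other Y-linked genes in the value of Eif2s3y was not tested.

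**Figure D2:**
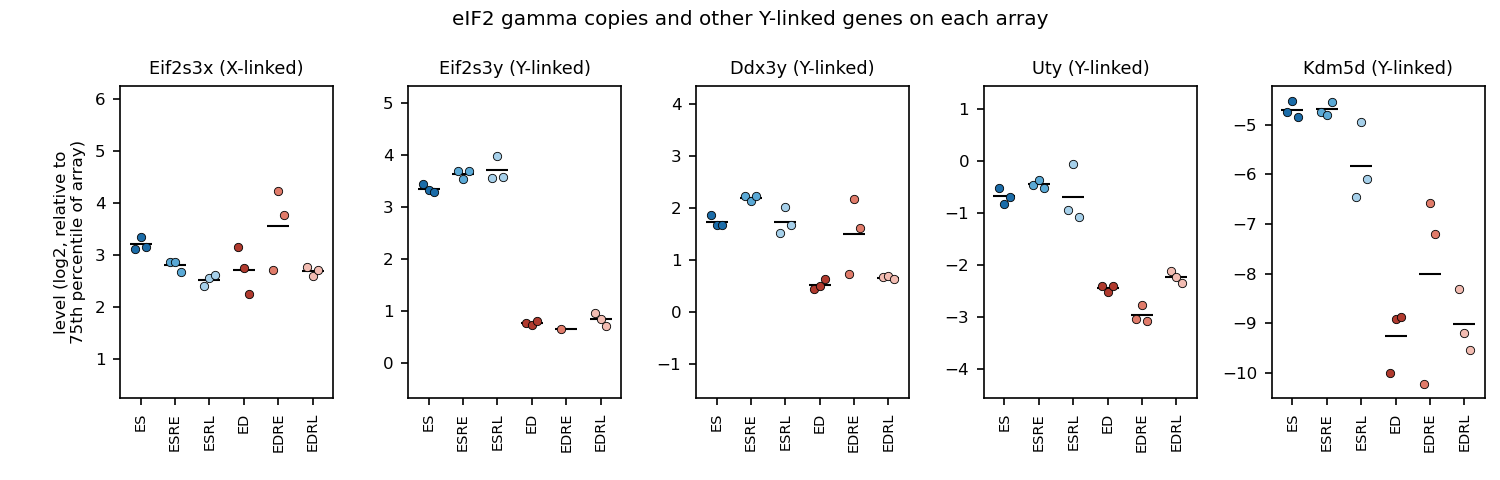
Levels (y axis, log2 over the array's 75th percentile) of Eif2s3x, Eif2s3y, Ddx3y, Uty and Kdm5d on each array by group; points are arrays, lines are group means, and spots marked as outliers are not drawn. Eif2s3y lies between 3.29 and 3.98 on all ES, ESRE and ESRL arrays and between 0.66 and 0.97 on the ED, EDRE and EDRL arrays that have a spot, whereas Eif2s3x overlaps between the cell types.

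Of the 5 subunits of eIF2B, the exchange factor of eIF2, 3 were lower in ED cells on the scaling to the 75th percentile. With each array set to its median none of them was called, at -0.55 for Eif2b3, -0.84 for Eif2b4 and -0.46 for Eif2b5. Eif2b4, the delta subunit, was at 3.31, 3.08 and 3.11 in ES and at 1.48, 1.72 and 1.83 in ED cells, a difference of 1.49 ± 0.29 (SE) on the log2 scale (2.81-fold, adjusted p = 9.56e-04). The groups did not overlap, and the other probes of the gene gave -1.55 and -1.40. Eif2b3, the gamma subunit, was lower by 1.22 ± 0.27 (SE, adjusted p = 0.0117), but its probe had 1 ES and 2 ED spots left. Without replicate 2 of ED its adjusted p was 0.0549. A second Eif2b3 probe with all spots kept changed by -1.31 ± 0.31 (SE, adjusted p = 0.0024). Eif2b5, the epsilon subunit with the exchange activity, was at 2.39 and 2.69 on the ES arrays left and at 1.36, 1.67 and 1.29 in ED cells (1.10 lower ± 0.31 SE, adjusted p = 0.0115), and without replicate 2 of ES its change was -0.95 (adjusted p = 0.0867). The subunits alpha (Eif2b1, 0.10, adjusted p = 0.871) and beta (Eif2b2, -0.35, adjusted p = 0.383) were not called.

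Among 13 genes of eIF3, the scaffold of the small subunit, 2 were lower, 1 was higher and 10 were not called, with changes between -1.55 and 1.0. Eif3g, an RNA-binding subunit, was at 5.04, 5.14 and 5.07 in ES and at 3.46 and 3.61 on the ED arrays left (2.93-fold lower, 1.55 ± 0.22 SE, adjusted p = 1.43e-04). Eif3k, a peripheral subunit, was at 5.16, 5.14 and 5.07 in ES and at 4.15, 4.04 and 4.13 in ED cells. Both separated the cell types without overlap, but the change of Eif3k (-1.02 ± 0.15 SE, adjusted p = 1.01e-04) was close to the fold limit and fell short of it without replicate 1 of ES (-1.0, adjusted p = 8.32e-04) or replicate 2 of ED (-0.98). Eif3l, the partner of Eif3k in the complex, was lower by 0.56 (adjusted p = 0.00506) and so did not meet the fold limit.

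Eif3e, a core subunit, moved the other way. It was at 3.23 and 3.60 on the ES arrays left and at 4.48, 4.38 and 4.39 in ED cells, a 2.0-fold higher level (1.0 ± 0.17 SE, adjusted p = 5.03e-04) with no overlap. The change was at the fold limit: it was 0.82 without replicate 2 of ES and 0.97 without replicate 1 of ED, and with outlier spots kept its adjusted p was 0.0594. Eif3e is also on a list that the study chose on these samples, so its change is not independent evidence of that list. The subunits Eif3a (0.18), Eif3c (0.03) and Eif3h (0.45) had adjusted p values between 0.127 and 0.946, and the core subunit Eif3b, with 1 ES spot left, was at -0.90 (adjusted p = 0.104).

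In the eIF4A family of helicases the calls fell on Eif4a1 and Eif4a3l1. Eif4a1, the helicase of cap-dependent initiation, was at 6.21, 6.02 and 5.93 in ES and at 5.05, 4.66 and 4.37 in ED cells. The groups did not overlap (2.57-fold lower, 1.36 ± 0.37 SE, adjusted p = 0.00741), and a second probe gave the same change (-1.36 ± 0.31 SE, adjusted p = 0.00265). Eif4a2, its close paralog, had a change of -0.24 (adjusted p = 0.273), and the other 2 probes of the gene by -0.45 and -0.37, none of them called. Eif4a3, a core component of the exon junction complex, was lower by 0.81 ± 0.23 (SE, adjusted p = 0.0069), under the fold limit. Eif4a3l1, an Eif4a3-like gene, was at 3.52 on the ES array whose spot was kept and at -5.99, -5.01 and -5.85 in ED cells. The difference of 9.14 ± 0.41 (SE) on the log2 scale, or 563-fold, was the largest among the members (adjusted p = 2.75e-09). The other ES spots, marked as outliers, read 3.53 and 3.50, and with outlier spots kept the call held (adjusted p = 5.54e-13). Both copies of a gene pair with similar sequence can bind a probe, and the probe sequences are not used here. The split of signal between Eif4a3 and Eif4a3l1 was therefore not tested and is uncertain. In ED cells the Eif4a3 probe was at 4.71, 4.81 and 4.66 on the arrays where the Eif4a3l1 probe was low. Eif4b (0.47) and Eif4h (0.30), the helpers of the helicase, had adjusted p = 0.331 and 0.0933.

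In the cap-binding family Eif4e2 and Eif4e1b were called lower, Eif4e was lower by adjusted p alone and Eif4e3 was not called. Eif4e, the cap-binding subunit of the initiation complex, was at -0.77, -0.84 and -0.64 in ES and at -1.14, -1.18 and -1.29 in ED cells. All ED values were below all ES values, by 0.45 ± 0.13 (SE, adjusted p = 0.00897), a 1.37-fold difference that did not meet the fold limit. Eif4e2, which codes for the cap-binding repressor 4EHP, was at -1.67, -1.82 and -1.90 in ES and at -3.88, -4.46 and -4.31 in ED cells, 5.34-fold lower (2.42 ± 0.37 SE, adjusted p = 5.14e-05). A second probe agreed (-1.94, adjusted p = 8.65e-04), but the third had a change of -0.43 and was not called (adjusted p = 0.0672). Eif4e1b, an oocyte form of the cap-binding protein, was at -4.25, -4.29 and -4.39 in ES and at -8.00, -5.68 and -7.97 in ED cells (2.90 lower ± 0.57 SE, adjusted p = 5.44e-04). Its probe was well above background on ED replicate 2 alone, so the values of the other ED arrays are readings at background and the size of the change is uncertain, and it was no longer tested where detection on all arrays of both groups was asked for. Also, a second probe was well above background on 3 of the 18 arrays and was not tested. Eif4e3 had a change of -0.28 (adjusted p = 0.36).

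The scaffolds of the eIF4G family were not called. Eif4g1, the main scaffold, was at 0.13 and -0.14 on the ES arrays left and at 0.54, 0.74 and 0.39 in ED cells (0.56 ± 0.21 SE, adjusted p = 0.0401). Eif4g3, its paralog, was at 1.64, 1.60 and 1.78 in ES and at 2.43, 2.50 and 2.59 in ED cells, 1.78-fold higher (0.83 ± 0.17 SE, adjusted p = 0.00116). Both separated the cell types, and with each array set to its median both passed the fold limit. Eif4g2, which codes for the scaffold DAP5 that cannot bind eIF4E, had a change of -0.02 on 1 probe and -0.03 on the other.

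Of the late factors, Eif5b and Eif5a2 were called. Eif5b, the GTPase of subunit joining, was at -6.83, -6.53 and -6.39 in ES and at -4.86, -4.79 and -4.78 in ED cells (3.41-fold higher, 1.77 ± 0.52 SE, adjusted p = 0.0104). The probe was well above background on all of these arrays and the groups did not overlap, although after normexp background correction the change was 0.91. Eif5, which triggers GTP hydrolysis, was at 4.28, 4.44 and 4.58 in ES and at 4.44, 4.19 and 4.70 in ED cells (0.01, adjusted p = 0.985). The groups overlapped, and its second probe also had a change of 0.01. Eif5a, the hypusine-bearing factor now known for its work in elongation, had a change of -0.16 (adjusted p = 0.475). Its paralog Eif5a2 was at -0.11 and -0.32 on the ES arrays left and at -1.69, -2.01 and -1.41 in ED cells, 2.81-fold lower (1.49 ± 0.37 SE, adjusted p = 0.00401). Eif6, which keeps the large subunit free, had a change of -0.38 (adjusted p = 0.252).

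Eif2d, which delivers tRNA to ribosomes outside the eIF2 pathway, was among the sharpest differences. It was at 4.79, 4.77 and 4.82 in ES and at 2.97, 2.92 and 2.96 in ED cells, with an SD of 0.02 in both groups (n = 3 each). The level was 3.59-fold lower in ED cells (1.84 ± 0.14 SE, adjusted p = 1.14e-07), a second probe was also lower (1.15 ± 0.29 SE, adjusted p = 0.00408), and the call was kept in every alternative and with each array left out in turn. Eif2a, another factor that can bind initiator tRNA, had a change of -0.63 (adjusted p = 0.055) and Eif1ad of 0.28 (adjusted p = 0.534), neither of them called. Eif4enif1, which codes for an eIF4E transporter, had no ES spot left and was not tested.

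**Figure D3:**
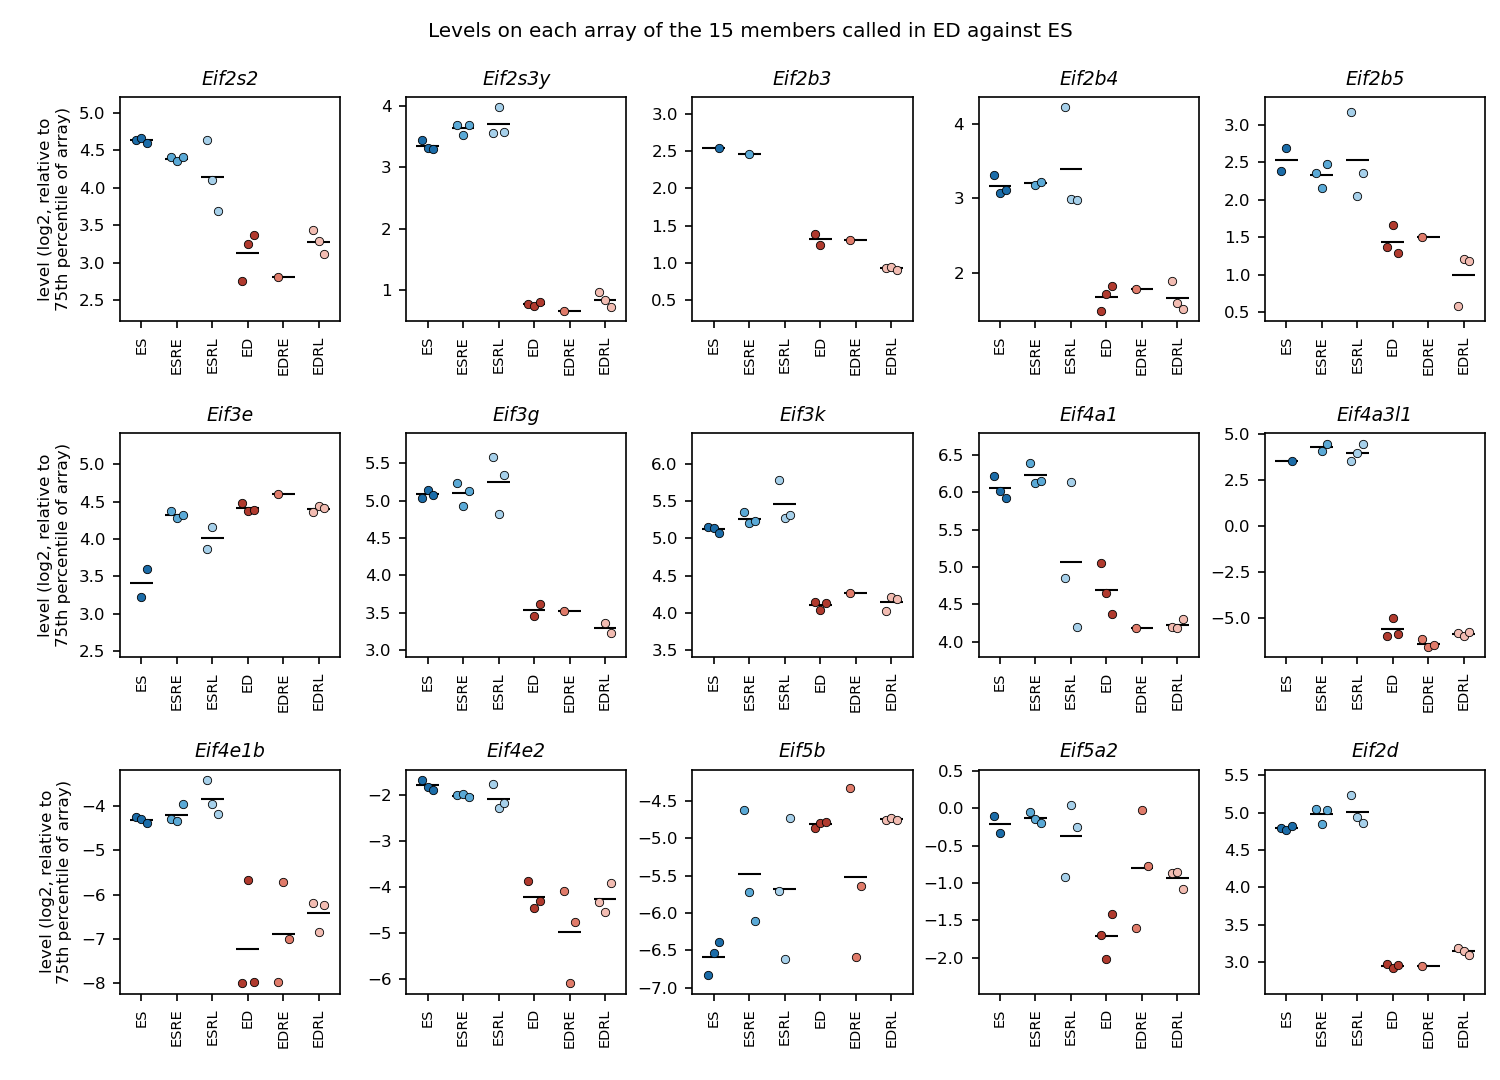
Levels (y axis, log2 over the array's 75th percentile, each panel with its own range of at least 3 units) of the 15 members called in ED against ES cells, on each array of the 6 groups; points are arrays, lines are group means, and spots marked as outliers are not drawn. In every panel the ES points lie apart from the ED points (Eif2d with an SD of 0.02 in both), and Eif4e1b ranges from -8.00 to -5.68 in ED cells.

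Lists of the regulators of initiation and of the later steps of translation, chosen with the members, were read for comparison. All 29 regulators were on the array. In ED against ES cells 3 of 26 tested were higher and 0 lower, beside 14.9% higher and 26.7% lower of all genes tested. The higher genes were Atf4 (2.19), the transcription factor of the integrated stress response, its target Trib3 (2.61), and Eif2ak2 (1.68). Eif2ak2 codes for the double-stranded RNA kinase of eIF2. The other eIF2 kinases Eif2ak1 (-0.64), Eif2ak3 (-0.89) and Eif2ak4 (0.02), the 4E-binding proteins Eif4ebp1 (0.62), Eif4ebp2 (-0.64) and Eif4ebp3 (-0.51), and Mtor (-0.91) were not called, although Eif2ak1, Eif2ak3 and Mtor passed the adjusted p without the fold limit. The median over the regulators was -0.07. Of 12 elongation and termination factors, 9 were tested, and 2 were higher and 1 lower, beside the same shares of all genes. Those higher were Eef1a2 (2.83), the tissue-restricted form of the elongation factor eEF1A, and Eef2k (2.27), the kinase of eEF2. Gspt2 (-5.54), a paralog of the release factor gene Gspt1, was lower. Gspt1 itself had a change of -0.13 (adjusted p = 0.775).

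On the irradiated arrays the genes called in ED against ES cells were read again, as levels. For 11 of the 15 genes (73.3%) all irradiated ES arrays with a spot lay on the same side of all irradiated ED arrays as before IR, near the 72.9% of all 10641 genes whose shown probe was called in ED against ES cells. For 10 of the 15 only 1 EDRE spot was left. Eif2d was between 4.85 and 5.05 in ESRE, between 4.86 and 5.23 in ESRL, at 2.95 on the 1 EDRE array left and between 3.1 and 3.19 in EDRL cells. Eif2s2 was between 4.36 and 4.41 in ESRE, between 3.69 and 4.63 in ESRL, at 2.81 on the 1 EDRE array left and between 3.12 and 3.44 in EDRL cells. Eif2s3y was between 3.53 and 3.70 in ESRE, between 3.56 and 3.98 in ESRL, at 0.66 on the 1 EDRE array left and between 0.72 and 0.97 in EDRL cells. These 3 genes, of tRNA delivery, separated the cell types after IR too. Eif2b3 was at 2.47 on the 1 ESRE array left, at 1.31 on the 1 EDRE array left and between 0.90 and 0.95 in EDRL cells and had no spot left in ESRL cells. Eif2b4 was between 3.18 and 3.22 in ESRE, between 2.98 and 4.22 in ESRL, at 1.78 on the 1 EDRE array left and between 1.51 and 1.88 in EDRL cells. Eif2b5 was between 2.16 and 2.48 in ESRE, between 2.06 and 3.17 in ESRL, at 1.50 on the 1 EDRE array left and between 0.57 and 1.21 in EDRL cells. The eIF2B subunits stayed apart in the same way. Eif3g was between 4.93 and 5.24 in ESRE, between 4.82 and 5.58 in ESRL, at 3.53 on the 1 EDRE array left and between 3.22 and 3.36 in EDRL cells. Eif3k was between 5.20 and 5.35 in ESRE, between 5.27 and 5.78 in ESRL, at 4.27 on the 1 EDRE array left and between 4.03 and 4.22 in EDRL cells. Eif3e was between 4.28 and 4.38 in ESRE, between 3.87 and 4.16 in ESRL, at 4.60 on the 1 EDRE array left and between 4.36 and 4.44 in EDRL cells. Eif3g and Eif3k separated the cell types, whereas the irradiated ES arrays of Eif3e reached the range of the irradiated ED arrays. Eif4a3l1 was between 4.08 and 4.49 in ESRE, between 3.54 and 4.46 in ESRL, between -6.59 and -6.11 in EDRE and between -5.98 and -5.75 in EDRL cells. Eif4e1b was between -4.34 and -3.97 in ESRE, between -4.18 and -3.41 in ESRL, between -7.96 and -5.71 in EDRE and between -6.83 and -6.18 in EDRL cells. Eif4e2 was between -2.06 and -1.99 in ESRE, between -2.29 and -1.77 in ESRL, between -6.10 and -4.10 in EDRE and between -4.56 and -3.92 in EDRL cells. These homologs were lower on every irradiated ED array than on any irradiated ES array with a spot. Some of the ED values are readings at background. On EDRE arrays the probe was well above background on 1 of 3 for Eif4a3l1, 0 of 3 for Eif4e1b and 2 of 3 for Eif4e2. On EDRL arrays it was so on 2 of 3 for Eif4e1b. Eif4a1 was between 6.13 and 6.40 in ESRE, between 4.20 and 6.14 in ESRL, at 4.18 on the 1 EDRE array left and between 4.18 and 4.30 in EDRL cells. Eif5a2 was between -0.20 and -0.05 in ESRE, between -0.91 and 0.05 in ESRL, between -1.60 and -0.02 in EDRE and between -1.08 and -0.86 in EDRL cells. Eif5b was between -6.11 and -4.62 in ESRE, between -6.62 and -4.73 in ESRL, between -6.59 and -4.33 in EDRE and between -4.76 and -4.72 in EDRL cells. In these 3 genes the irradiated arrays of both cell types overlapped.

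After IR no initiation factor was called in ES cells. At 15 min 0 of 46 members tested were called in ESRE against ES (0.29% of all genes were called higher and 0.173% lower). The methods' t-test called 0 as well. Eif3e came closest. It was at 4.38, 4.28 and 4.32 in ESRE cells, above both ES spots (3.23 and 3.60), a 1.88-fold difference of 0.91 ± 0.17 (SE) with an adjusted p of 0.0506. The spot of replicate 1 of ES, an outlier at 3.30, also lay below, but with outlier spots kept the adjusted p was 0.578. With each array set to its median Eif3e was called (1.01, adjusted p = 0.0354), and without the 3 dim arrays its adjusted p was 0.00396 at the same change, under the fold limit. At 4 h it was at 3.87 and 4.16 on the ESRL arrays left (0.60, adjusted p = 0.0751). The largest value at 15 min was that of Eif5b at 1.10 ± 0.52 (SE, adjusted p = 0.542), whose ESRE arrays ranged from -6.11 to -4.62. Eif2a (0.10), Eif4e (-0.03) and Eif2s1 (0.02) stayed near 0, with adjusted p between 0.993 and 0.999.

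At 4 h 0 of 47 members were called in ESRL against ES (0.691% of all genes higher and 6.9% lower), and 0 by the methods' t-test. Eif4a1 was at 4.85, 6.14 and 4.20 in ESRL cells, against 5.93 to 6.21 in ES cells (-0.99 ± 0.37 SE, adjusted p = 0.117), and its second probe was at 5.08, 5.62 and 4.33 (-0.76, adjusted p = 0.11). On the first probe replicate 2 lay in the range of ES cells and the others below it, and on the second all 3 arrays lay below the ES arrays. Without replicate 2 of ESRL, Eif4a1 and Eif1ad were called, and with quantile normalization Eif4a1 was. Eif1ad was at -3.05, -2.01 and -2.27, below all ES arrays (-1.0 ± 0.33 SE, adjusted p = 0.0749). Replicate 1 of ESRL, the dimmer array, held the highest values of several members, such as 4.22 for Eif2b4 against 2.99 and 2.98, and 6.44 for Eif3d against 5.68 and 5.50. The members' median was 0.16, beside -0.16 over all probes tested.

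In ED cells 2 members were called 15 min after IR and 0 at 4 h, and the first count moved with single arrays and with the scaling. It was 15 without replicate 1 of EDRE (12 higher and 3 lower, beside 18.3% and 13.7% of all genes), which leaves the dim arrays, 6 with median scaling, 8 with normexp correction of the background and 0 without the dim arrays. The shares of all genes with median scaling and with normexp correction are not given here, so those counts are not read as a result about the members. Eif2a, which can bind initiator tRNA, and Eif5, the activator of GTP hydrolysis on eIF2, were higher in EDRE cells. Eif2a was at 4.40, 5.32 and 5.75 in EDRE and at 3.60, 3.92 and 4.26 in ED cells (2.35-fold higher, 1.23 ± 0.26 SE, adjusted p = 0.0171). Eif5 was at 5.14 and 5.97 on the EDRE arrays left and at 4.44, 4.19 and 4.70 in ED cells (2.16-fold higher, 1.11 ± 0.24 SE, adjusted p = 0.0255), and its second probe, with replicate 1 left alone, was at 0.80 (adjusted p = 0.0797). All EDRE values lay above all ED values. These were 2 of 47 members tested, or 4.26% higher and 0% lower, beside 2.23% and 2.97% of all genes. Both calls needed the dim arrays: without replicates 2 and 3 of EDRE and replicate 1 of ESRL the change of Eif2a was 0.48 (adjusted p = 0.231) and that of Eif5 0.70 (adjusted p = 0.111), with replicate 1 as the lone EDRE array, taken to vary like the other groups. Leaving out single arrays also ended them: Eif2a had adjusted p = 0.0818 without replicate 1 and 0.0652 without replicate 2 of ED, and 0.053 without replicate 2 and 0.0673 without replicate 3 of EDRE. Eif5 had 0.0845 without replicate 1 and 0.0948 without replicate 2 of ED, and 0.16 without replicate 3 of EDRE.

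The EDRE arrays differed among themselves. For 25 of the 48 members replicate 1 alone had a spot left, 24 of them among the 34 members with an ED level above 0. On replicate 1 the members lay at a median of 0.03 from their ED mean, with 14 of 48 above all ED arrays. Of the members tested these were 10 of 34 with an ED level above 0 (29.4%, beside 34.4% of all genes). With an ED level below 0 they were 4 of 13 (30.8%, beside 17% of all genes). On replicate 2 the 22 members with a spot had a median of 1.01 and on replicate 3 the 19 members with a spot a median of 0.91. Members with an ED level above 0 that kept a spot were above all ED arrays in 9 of 9 cases on replicate 2 and in 8 of 8 on replicate 3, with medians of 1.41 and 1.16. Of all genes with an ED level above 0 and a spot there, 83.2% and 92.4% did so. For members with an ED level below 0 the medians were -0.14 and -0.26. Of those tested, 3 of 12 (25%) and 3 of 10 (30%) were above all ED arrays, beside 42.8% and 40.3% of all genes. Eif4b, for example, was at 4.80, 6.54 and 6.76 in EDRE against 4.68, 4.59 and 5.25 in ED cells (1.19 ± 0.37 SE, adjusted p = 0.0623), and Eif3d at 5.18, 6.79 and 6.30 against 5.12, 5.03 and 5.12 (1.0 ± 0.31 SE, adjusted p = 0.0624). On replicate 1 alone the changes were -0.04 for Eif4b and 0.09 for Eif3d. The part of the dim signal in these values was not tested, since replicates 2 and 3 are the only arrays of their scan time.

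**Figure D4:**
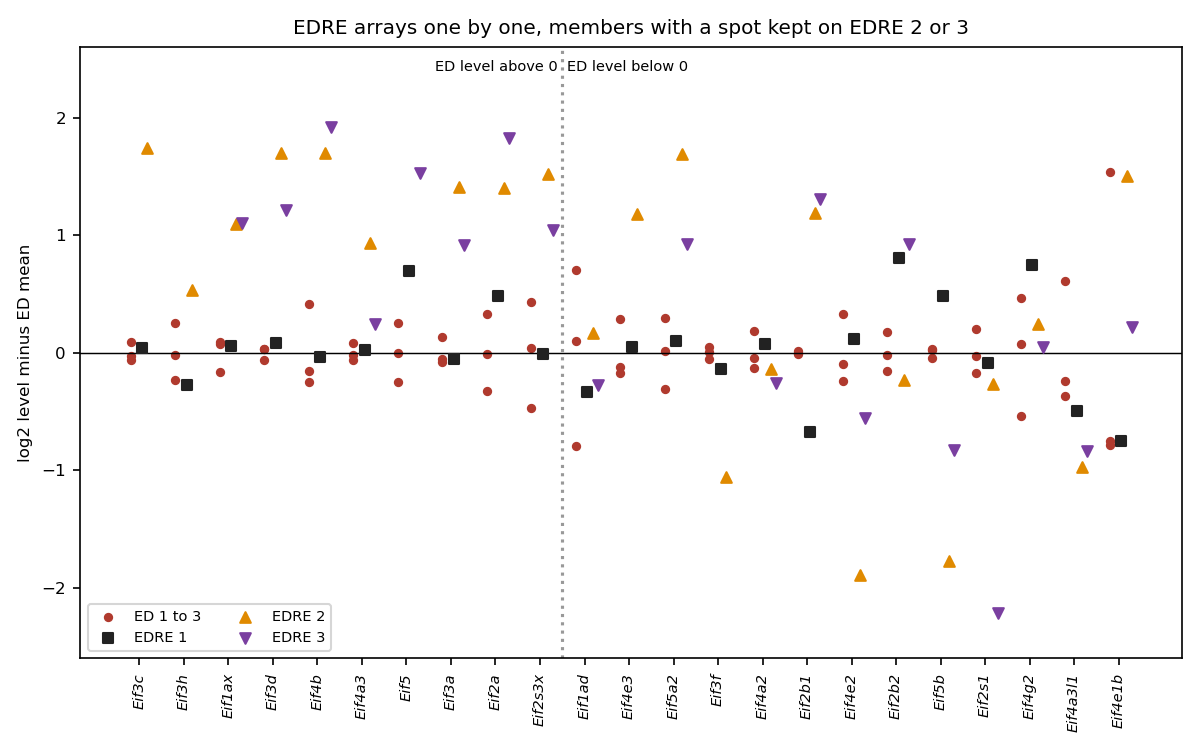
Level minus the ED mean (y axis, log2) on each ED array and each EDRE array for the 23 members that kept a spot on replicate 2 or 3 of EDRE, in order of their ED level; circles are ED arrays, the square, upward and downward triangles are EDRE 1, 2 and 3. Spots marked as outliers are not drawn. Left of the dotted line, where the ED level is above 0, all triangles drawn lie above 0 (medians 1.41 and 1.16). The squares there have a median of 0.03 and range from -0.28 to 0.70, with Eif5 at 0.70 and Eif2a at 0.48.

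At 4 h after IR 0 of 47 members were called in EDRL against ED (1.4% of all genes higher and 0.254% lower), and 0 by the methods' t-test. Eif4g1 was at -0.21, -0.26 and -0.12 in EDRL against 0.54, 0.74 and 0.39 in ED cells (-0.76 ± 0.18 SE, adjusted p = 0.0546), and Eif4e3 at -0.47, -0.47 and -0.50 against -1.31, -1.36 and -0.90 (0.71 ± 0.23 SE, adjusted p = 0.152). Neither gene overlapped between the groups. Eif1ad was at -2.03, -2.17 and -2.37 against -0.47, -1.07 and -1.96 (-1.02 ± 0.33 SE, adjusted p = 0.138), and without replicate 3 of ED, or without the 3 dim arrays, it was called. Over the members with 3 spots the median SD was lowest in EDRL cells, at 0.08 (44 members). It was 0.10 in ES, 0.13 in ESRE, 0.29 in ESRL, 0.19 in ED and 0.76 in EDRE cells (18 members). The members with 3 spots differed between the groups.

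**Figure D5:**
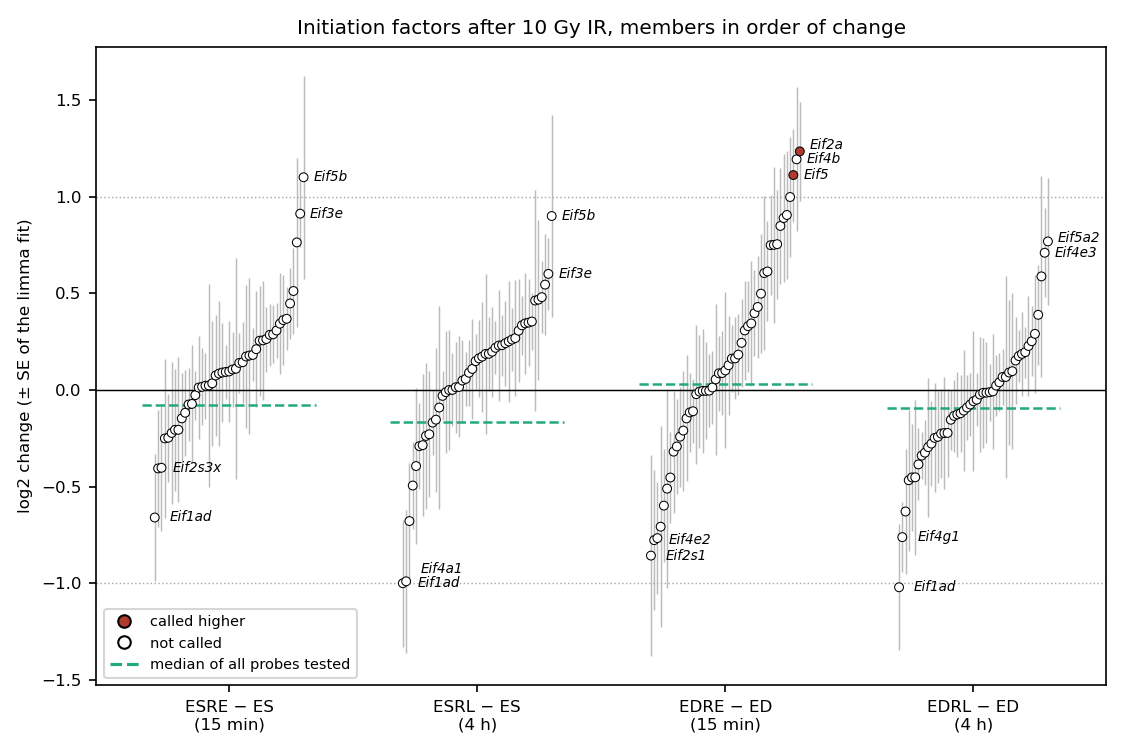
Log2 change after 10 Gy IR (y axis, bars are the SE of the limma fit) of the members tested in ESRE and ESRL against ES and in EDRE and EDRL against ED cells, each in order of its change; red points are members called and the dashed lines are the medians of all probes tested. Eif2a (1.23) and Eif5 (1.11) in EDRE cells are the only points called, on the scaling to the 75th percentile.

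The response to IR was also compared between the cell types. At 15 min 0 of 46 and at 4 h 0 of 47 members differed between ES and ED cells in their change (2.09% and 1.16% of all genes). Without replicate 1 of EDRE the count at 15 min was 12 (29.5% of all genes), and without replicate 2 of ESRL the count at 4 h was 1. The largest differences, ES minus ED, were 1.81 ± 0.74 (SE) for Eif5b (adjusted p = 0.207), 1.53 for Eif4a3l1 (adjusted p = 0.154) and -1.40 for Eif4b (adjusted p = 0.178) at 15 min, and at 4 h -0.92 for Eif5a2 (adjusted p = 0.412), 0.83 for Eif5b (adjusted p = 0.632) and 0.81 for Eif4g1 (adjusted p = 0.204), the last of them with the lowest adjusted p. ESRE and ESRL cells share their ES controls, and EDRE and EDRL cells their ED controls. Of the regulators, Paip1, which binds the poly(A)-binding protein, was called lower in ESRL cells (-1.67, adjusted p = 0.0213), but its probe was well above background on 1 of 3 ESRL arrays (level -6.84 ± 1.11 SD, n = 3) against 3 of 3 ES arrays, so the size of this change is uncertain. Eif2ak2 was higher in EDRE cells (1.0, adjusted p = 0.0133) and differed between the cell types at 15 min (-1.45, adjusted p = 0.0221). Both values rest on the EDRE group with its dim arrays and were not checked without them. None of the elongation and termination factors was called after IR.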

How the data were processed

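RNA of 18 samples, 3 in each of 6 groups, was hybridized to Agilent 1-color arrays, 1 array a sample. The authors deposited scanner files of Agilent Feature Extraction (version 10.7.3.1 per the file headers, 9.1 in the submitters' processing notes) with the processed signal of each spot, an intensity after background subtraction by that software. A series matrix deposited by the authors holds log2 values, which equal the log2 signal plus 1 constant for each array. How it was scaled is not stated in the sources used here, but the constant lay close to minus the array's median log2 signal. For ES replicate 1 these were -8.10 and 8.11, and for EDRE replicate 2 they were -5.42 and 5.43. The matrix served as an alternative that is close to median scaling and not independent of it. Groups and replicate numbers came from the sample labels, and 0 value columns had no sample.

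From the intensities, control spots and spots marked as outliers were left out, and the log2 of each array's 75th percentile was subtracted from its log2 signals. Groups were compared with limma (version 3.58.1, R 4.3.3) over all 18 arrays, with Benjamini-Hochberg adjustment over all probes tested, so every adjusted p given is limma's unless another test is named. Calls needed both an adjusted p under 0.05 and a size of the log2 change above 1. The fit was tested on simulated data. Accessions were named through RefSeq. For a gene with several probes, the one well above background on most arrays and then the brightest was shown. Members were accounted for by complex, those called were named with values (up to 8 a direction and comparison), and a list of core factors was named whether called or not. Other members given with values were chosen after their values were seen. The members and lists were chosen with earlier results of these data known.

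Alternatives were median scaling, quantile normalization, normexp background correction (offset 50), detection filters, outlier spots kept, arrays of the same scan time as a random block, a replicate block, only the groups compared, no fold limit, the methods' t-test, 1 probe a gene, the authors' matrix, each array left out in turn, and the 3 dim arrays left out. The arrays had 6 scan times, taken here as slides, none of which held arrays of a group and of its control, so slide could enter only as a random block. Replicate numbers were taken not to pair the samples: correlations of same-numbered deviations ran from -0.37 to 0.30. The number of arrays limits the precision.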

Additional observations from a re-analysis of the deposited data

How the results depend on the processing

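The 3 arrays a group and the dim EDRE arrays limit these results, and no spot of a member was saturated. In ED against ES cells the count of members called was 15, falling to 3 when slide entered as a random block (consensus correlation 0.81 over 5839 probes). The ES arrays lay on a single slide and the ED arrays on another, so cell type and slide cannot be told apart here. The cause of the fall was not tested. Of the 15 calls 7 were shared with median scaling (12 called), 8 with the authors' matrix (13 called) and 15 with quantile normalization (15 called). The authors' matrix is scaled close to the array medians, so it and median scaling are not independent. By adjusted p with no fold limit 21 members passed. Eif2d and Eif2s3y kept their calls in all alternatives run, and Eif4a3l1 in all but the one without ES replicate 3, its only ES spot. No called gene changed sign, but with median scaling the split turned from 2 higher and 13 lower to 7 higher and 5 lower, and the members' median from -0.35 to 0.30.

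The count in EDRE against ED cells, 2, was 6 with median scaling, 0 with quantile normalization, 8 with normexp background correction, 4 with outlier spots kept, 0 with slide as a random block, 0 with only the groups compared, 0 by the methods' t-test, 6 with the authors' matrix and 0 without the 3 dim arrays, where the lone EDRE array was assumed to vary like the other groups. In ESRE against ES cells the count of 0 became 1 with median scaling (Eif3e), in ESRL against ES cells 1 with quantile normalization (Eif4a1), and in EDRL against ED cells 1 without the 3 dim arrays (Eif1ad); the causes were not tested.

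With each array left out in turn the counts ranged from 13 to 15 in ED against ES, 0 to 0 in ESRE against ES, 0 to 2 in ESRL against ES (2 without ESRL replicate 2), 0 to 15 in EDRE against ED (15 without EDRE replicate 1) and 0 to 1 in EDRL against ED (1 without ED replicate 3). For the difference between the cell types they ranged from 0 to 12 at 15 min (12 without EDRE replicate 1) and from 0 to 1 at 4 h (1 without ESRL replicate 2, Eif4g1). With the replicate block the counts were 15, 0, 0, 2 and 0 in these comparisons and 0 and 0 for the differences between the cell types; same-numbered samples did not deviate together.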
